A study of Mustela putorius furo and Mus musculus with 4 samples.

Results

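The renin-angiotensin system genes described here are 9 genes of angiotensin production, breakdown and reception: Agt, Ace, Agtr2, Agtrap, Enpep, Lnpep, Mas1, Atp6ap2 and Ctsg. They were taken by symbol, without regard to case, from 13373 gene symbols shared by ferret and mouse astrocytes, and all 9 have 1 value per library in both species. The list was chosen by function while the FPKM of these same libraries, and with it the difference of Agt between the species, was already known. The values of the 9 genes are therefore a description, with no p-value, and the count of members past the limits used for all genes is given as a description too. Of the 9 genes, 5 had a species mean of 1 FPKM or more in ferret or mouse and 4 stayed below it in both.

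RNA was sequenced from primary astrocytes of 2 species, with 2 libraries from normally pigmented sable ferrets (Mustela putorius furo) and 2 from wild-type ICR mice. The cells came from the cerebral cortex, of ferrets on postnatal day 1 and of mice on postnatal day 1 to 3, and the labels name no genetic change or drug treatment in either species. Mixed glia grew in serum for 14 days before loose cells were shaken off and the rest replated. Serum was removed on day 3 and RNA collected on day 7, so cells of both species had been without serum for 4 days. Glia of 1 ferret pup filled 4 flasks, whereas 4 mouse pups were pooled in 1 flask. FPKM, the unit of every level given here, counts sequenced fragments relative to transcript length and library size. FPKM keeps no read counts and the study's counts were not used here, so no counting error is given, and a gene listed at 0 may be a failed estimate. Each species was measured on its own gene models, so species and annotation cannot be told apart, and the spread given is that between duplicates whose separate culture is not stated.

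In the renin-angiotensin system, the secreted precursor angiotensinogen (Agt) is cut to angiotensin I, which angiotensin-converting enzyme (Ace) shortens to angiotensin II. Angiotensin II acts on the type 1 and type 2 receptors, and Agtr2 encodes the latter. Aminopeptidase A (Enpep) trims angiotensin II further, and an angiotensin heptapeptide acts on the receptor Mas1. In the brain, astrocytes are known as the main cells that make angiotensinogen.

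Mouse coding sequence is shown at the hormone and at the catalytic motifs of the enzymes. It was read from GENCODE M21 transcripts on GRCm38, as the ferret sequence was not used here. The stretch of Agt is shown because it holds the hormone itself: it runs from the start codon, at chr8:124564450-124564566 on the minus strand in exon 2 of 5, and the 30 bases in capitals are codons 30 to 39, which encode angiotensin I.

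Agt: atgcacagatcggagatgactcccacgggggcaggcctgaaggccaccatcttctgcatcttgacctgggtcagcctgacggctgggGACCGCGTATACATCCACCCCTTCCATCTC

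The metallopeptidases of the list are shown at the codons of their zinc-binding motif, written HExxH in amino acids, where x is any residue. A search of the 9 mouse coding sequences found it 2 times in Ace, which has a pair of catalytic domains, once in Enpep and once in Lnpep, and not in the other 6 genes. Capitals mark the 15 bases of the motif. The Ace stretches lie at chr11:105972892-105972942 (exon 8, codons 395 to 399) and chr11:105985076-105985126 (exon 20, codons 993 to 997), on the plus strand. Those of Enpep and Lnpep are split by an intron and lie on the minus strand, Enpep in exon 5 (chr3:129309769-129309804) and exon 6 (chr3:129309121-129309135), Lnpep in exon 6 (chr17:17570874-17570909) and exon 7 (chr17:17568420-17568434).

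Ace, N-terminal motif: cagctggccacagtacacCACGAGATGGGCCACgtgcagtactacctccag
Ace, C-terminal motif: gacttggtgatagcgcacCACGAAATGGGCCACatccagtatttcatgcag
Enpep: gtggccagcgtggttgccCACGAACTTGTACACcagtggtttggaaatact
Lnpep: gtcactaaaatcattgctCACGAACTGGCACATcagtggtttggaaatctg

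Ferret astrocytes had far more of the precursor transcript than mouse astrocytes. Agt stood at 112.5 and 104.7 FPKM in the ferret libraries and at 0.761 and 0.649 FPKM in the mouse libraries. Both ferret libraries were high, both mouse libraries were under 1, and the groups did not overlap. The ferret mean was 108.6 ± 5.50 FPKM and the mouse mean 0.705 ± 0.079 (both SD, n = 2), a 154-fold difference in mean FPKM. On the scale of log2(FPKM + 1), on which all log2 differences here are ferret minus mouse, Agt differed by 6.01 (standard error 0.071), against gaps between duplicates of 0.102 in ferret and 0.095 in mouse. In the ferret Agt ranked at position 309 of the 13373 shared genes by mean FPKM, above 97.7% of them. In the mouse it ranked at position 9881, above 26.1% of them. Its log2 difference was the eighth highest of the 10204 genes that reached a mean of 1 FPKM in either species. The mouse gene (ENSMUSG00000031980) is at chr8:124556534-124569706 of GRCm38, minus strand, and has 5 exons and 482 codons. Agt passed the filter on low values through the ferret alone.

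**Figure D1:**
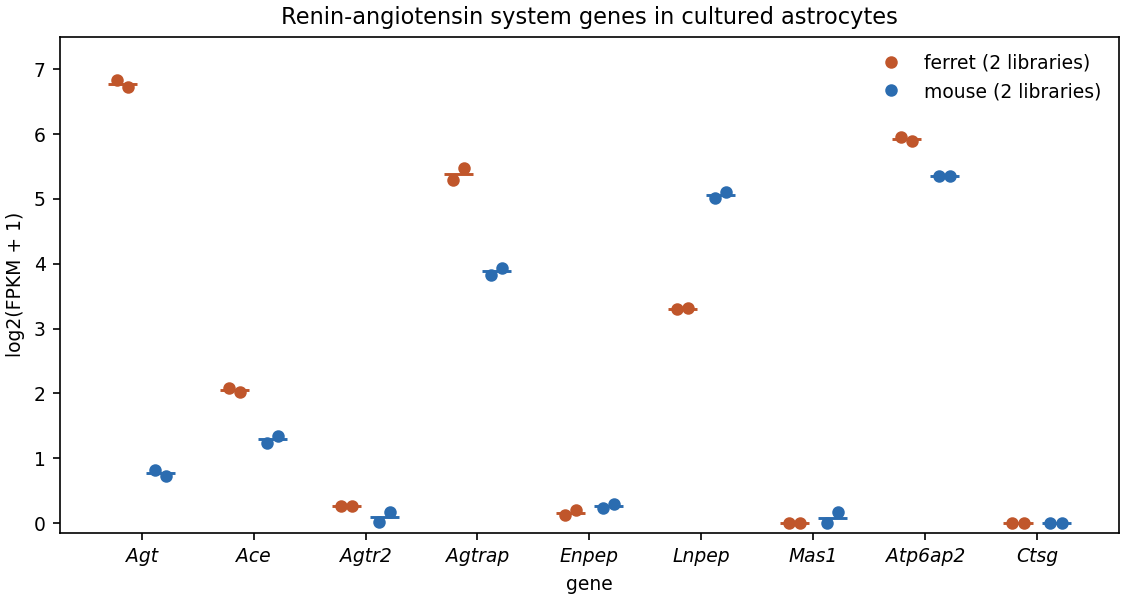
Level of each of the 9 genes in log2(FPKM + 1), with points for the 2 ferret (orange) and 2 mouse (blue) libraries and a line at each mean. Agt has the widest gap between species, Lnpep is the gene above 1 FPKM that is higher in mouse astrocytes, and Enpep, Agtr2, Mas1 and Ctsg lie near 0 in both.

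The genes with expression patterns most like that of Agt, by the Euclidean distance of log2(FPKM + 1) over the 4 libraries, were Rtl5 (distance 0.241), Psmd5 (0.302) and Aldh1a3 (0.614). Rtl5, a gene derived from a retrotransposon, stood at 98.5 and 105.0 FPKM in ferret and at 0.836 and 0.502 in mouse libraries. Psmd5, a proteasome assembly factor, stood at 101.1 and 104.1 against 0.490 and 0.767. Aldh1a3, an enzyme of retinoic acid synthesis, stood at 106.9 and 124.8 against 0.298 and 0.303.

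Ace, which makes angiotensin II and also breaks down bradykinin, was at a low level in both species. The ferret libraries held 3.23 and 3.04 FPKM, the mouse libraries 1.36 and 1.54. Each ferret library was above each mouse library, by more than the gap between duplicates. The ferret mean was 3.14 ± 0.128 FPKM and the mouse mean 1.45 ± 0.133 (both SD, n = 2), a log2 difference of 0.76 (standard error 0.080). Brain endothelial and choroid plexus cells are known to carry Ace. Summed FPKM of 8 endothelial markers was 0.531 to 0.628 in ferret and 25.9 to 26.2 in mouse libraries. Most of the mouse sum was Cdh5, at 21.96 and 22.46 FPKM, while Cldn5 was listed at 0 and Pecam1 was at most 0.041 in mouse libraries. Pecam1, Cdh5 and Tek were listed at 0 in both ferret libraries. Summed FPKM of 6 choroid plexus markers was 1.66 to 2.16 in ferret and 4.49 to 4.68 in mouse libraries, and the defining marker Ttr had no value above 0.094 in any library. Most of the mouse sum was Folr1, at 3.80 and 3.56 FPKM in mouse and listed at 0 in ferret libraries, whereas Otx2 was at 0.858 and 0.711 in ferret and at 0.024 and 0 in mouse libraries. Kcnj13 was at 1.13 and 0.884 FPKM in ferret and at 0.749 and 0.827 in mouse libraries. The part of these cells in the level of Ace was not tested. The mouse gene (ENSMUSG00000020681) is at chr11:105967945-105989964, plus strand, with 25 exons.

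Cathepsin G (Ctsg), a serine protease of neutrophils and mast cells that can form angiotensin II, was listed at 0 in all 4 libraries. Of 7 mast cell and neutrophil markers with a value in both species, Cpa3 was listed at 0 in all 4 libraries. The summed FPKM of the list was 1.32 and 2.21 in ferret and 1.51 and 0.998 in mouse libraries. Most of that sum was S100a8, at 0.669 and 1.57 in ferret and 0.9135 and 0.558 in mouse libraries, and Kit, at 0.531 and 0.613 against 0.599 and 0.428. Cma1, Ms4a2, Mpo and Elane had no value above 0.046 in any library. The mouse Ctsg gene (ENSMUSG00000040314) is at chr14:56099881-56102574, minus strand.

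Receptor genes were at the low end in both species. Agtr2 stood at 0.206 and 0.207 FPKM in the ferret libraries and at 0.00945 and 0.128 in the mouse libraries. The ferret duplicates were nearly equal, whereas the mouse duplicates were far apart, and both mouse values were below both ferret values. Mas1 was listed at 0 in both ferret libraries and in mouse replicate 1, and stood at 0.124 FPKM in mouse replicate 2. The type 1 receptor, the main target of angiotensin II, carries different symbols in the 2 species and was not compared. Ferret AGTR1 stood at 0.064 and 0.151 FPKM, mouse Agtr1a at 0.360 and 0.491, and mouse Agtr1b at 0.040 and 0.017. Mrgprd, a receptor for another angiotensin heptapeptide, was listed at 0 in all 4 libraries. Mouse Agtr2 (ENSMUSG00000068122) is at chrX:21484544-21489164, plus strand, and Mas1 (ENSMUSG00000068037) at chr17:12841079-12868143, minus strand.

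Agtrap, in contrast, was clearly present. Its product binds the type 1 receptor and promotes its internalization. It stood at 38.2 and 43.5 FPKM in the ferret libraries and at 13.2 and 14.3 in the mouse libraries, with both ferret values above both mouse values. The means were 40.8 ± 3.76 FPKM (SD, n = 2) and 13.8 ± 0.774 (SD, n = 2), a 2.96-fold difference in mean FPKM and a log2 difference of 1.499 (standard error 0.077). The ferret duplicates of Agtrap were 0.184 apart on the log2 scale, against a median of 0.081 over all genes tested. By mean FPKM Agtrap stood above 91.3% of shared genes in ferret and above 66.8% in mouse astrocytes. The mouse gene (ENSMUSG00000029007) is at chr4:148077061-148088031, minus strand.

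Both aminopeptidases had higher values in mouse astrocytes, at very different levels. Lnpep, also known as insulin-regulated aminopeptidase and as the binding site of angiotensin IV, was the member above 1 FPKM that was higher in mouse astrocytes. It stood at 8.84 and 8.93 FPKM in the ferret libraries and at 31.5 and 33.5 in the mouse libraries. The duplicates of each species lay close together and the species were well apart. The means were 8.89 ± 0.060 FPKM (SD, n = 2) and 32.5 ± 1.48 (SD, n = 2), a 3.66-fold difference and a log2 difference of -1.76 (standard error 0.065). Enpep stood at 0.085 and 0.144 FPKM in ferret and at 0.177 and 0.228 in mouse libraries, below 1 throughout, with both mouse values above both ferret values. Microglial markers and most meningeal fibroblast markers moved with the mouse side. Of 10 microglial markers, 10 were called lower in ferret astrocytes, against 30.1% of all genes tested. Their summed FPKM was 9.23 and 10.5 in ferret and 598 and 610.5 in mouse libraries, and Cx3cr1 was listed at 0 in both ferret libraries. Of 6 meningeal fibroblast markers tested, 5 were called lower. Pdgfra went the other way, at 3.07 and 3.23 FPKM in ferret and at 1.64 and 1.23 in mouse libraries, and was not called. The fibroblast list of 7 summed to 110.1 and 124.2 FPKM in ferret and to 788 and 830 in mouse libraries. The part of these cells in the level of Lnpep was not tested. In RNA of whole cultures, fewer cells of a type and less RNA per cell cannot be told apart. The paper counted cells by immunostaining in cultures kept in serum, unlike those sequenced. It reported a larger share of microglia in mouse than in ferret cultures, and neurons in ferret cultures only. Mouse Lnpep (ENSMUSG00000023845) is at chr17:17521410-17625050 and Enpep (ENSMUSG00000028024) at chr3:129269175-129332720, both on the minus strand.

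Atp6ap2 had the least difference in fold of the 5 genes above 1 FPKM. It encodes a receptor of the system that is also an accessory subunit of the V-ATPase, the proton pump of lysosomes. It stood at 61.1 and 58.4 FPKM in the ferret libraries and at 39.8 and 40.0 in the mouse libraries, and the groups did not overlap. The means were 59.7 ± 1.89 FPKM (SD, n = 2) and 39.9 ± 0.138 (SD, n = 2), a 1.498-fold difference and a log2 difference of 0.57 (standard error 0.058). It was above 94.4% of shared genes in ferret and above 87.8% in mouse astrocytes. The mouse gene (ENSMUSG00000031007) is at chrX:12587801-12617049, plus strand.

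The order of the genes by mean FPKM differed between the species. In ferret astrocytes it was Agt, Atp6ap2, Agtrap, Lnpep, Ace, Agtr2 and Enpep, followed by Mas1 and Ctsg at 0, and no neighbours above 0 overlapped between duplicates. In mouse astrocytes it was Atp6ap2, Lnpep, Agtrap, Ace, Agt, Enpep, Agtr2, Mas1 and Ctsg, where Agtr2 overlapped with Mas1 and Mas1 with Ctsg. Shares of the 9 genes' summed FPKM within a library do not depend on how libraries are scaled to each other. In ferret, Agt made up 50.2% and 47.8% of that sum, against 0.877% and 0.717% in mouse libraries. Lnpep made up 3.95% and 4.08% in ferret and 36.3% and 37.1% in mouse libraries. Agt enters the sum of the ferret libraries alone to any extent, so the shares were also taken without it. Lnpep then made up 7.92% and 7.82% in ferret and 36.6% and 37.3% in mouse libraries, and Agtrap 34.2% and 38.1% against 15.4% and 15.9%. Atp6ap2 stayed nearer, at 54.7% and 51.1% against 46.2% and 44.5%. Within a library the ratio of Agtrap to Lnpep was 4.32 and 4.87 in ferret and 0.421 and 0.427 in mouse astrocytes.

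**Figure D2:**
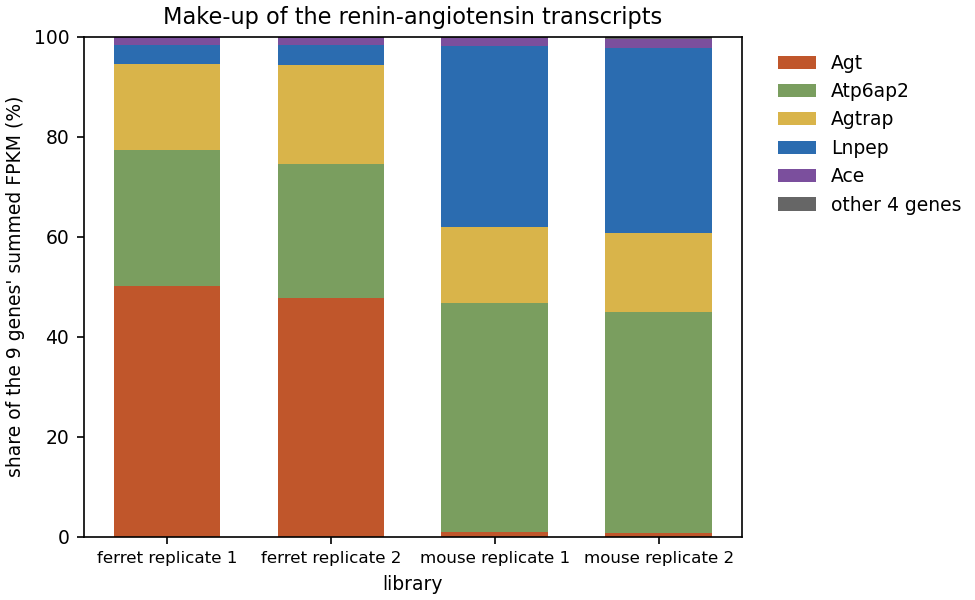
Share of each gene in the summed FPKM of the 9 genes, in percent, as 1 stacked bar for each of the 4 libraries. Agt fills 50.2% and 47.8% of the ferret bars and under 1% of the mouse bars, where Lnpep fills 36.3% and 37.1%.

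Among all 10204 genes tested, 43.2% were called, that is, had a log2 difference beyond 1 in either direction and a Benjamini-Hochberg adjusted p below 0.05 by limma. Of all genes tested, 13.1% were called higher and 30.1% called lower in ferret astrocytes. By these limits 2 of the 5 members above the filter were higher in ferret astrocytes, Agt and Agtrap, and 1 was lower, Lnpep. Nothing is read from this count, since the members were chosen with the contrast known and Agt could pass the filter only by being high in the ferret. The median log2 difference of the 5 members was 0.76, and that of all genes tested was -0.35. Scaling between species moved all values. With all libraries brought to 1 common sum of FPKM over shared genes, the median of all genes was -0.01, and 19.1% of genes were called higher and 21.7% lower. Ace then had a log2 difference of 1.02 and stood past the limits with Agt and Agtrap, while Atp6ap2, at 0.95, stayed below a difference of 1. After quantile normalization the median of all genes was 0.05, Ace stood at 1.16 and Lnpep at -1.35. With a pseudocount of 0.1 Ace stood at 1.06.

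**Figure D3:**
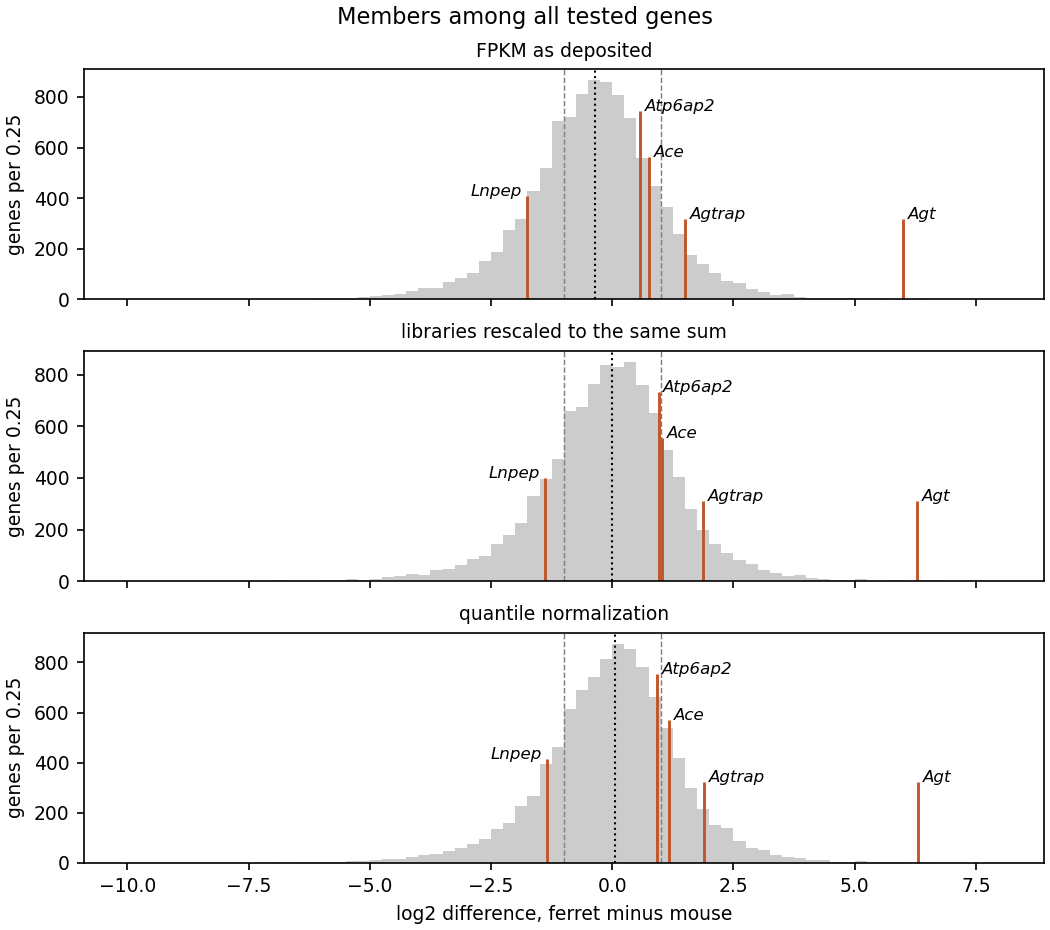
Log2 difference between ferret and mouse astrocytes for the 5 members above the filter (orange lines, whose height carries no value) over the histogram of 10204 tested genes (grey), for FPKM as deposited and 2 other scalings. The dotted line is the median of all genes, which moves from -0.35 to -0.01 and 0.05, and the dashed lines are the limits of 1. Agt lies at the far right in each panel and Lnpep left of the median.

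The rest of the pathway was taken as 88 further genes in 9 lists, none of them members. Like the members, the lists were chosen with earlier results of these data known. Their counts and adjusted p-values therefore describe where the genes stood among all genes tested, and give no verdict on a list. Of these, 74 had a symbol shared by the species and 54 passed the filter. The test across all genes called 5 of the 54 higher and 18 lower in ferret astrocytes, which is 9.26% and 33.3%, against 13.1% and 30.1% of all genes tested. A further 23 passed an adjusted p under 0.05 with a smaller difference and 8 did not pass it. Of all genes tested, 88.6% had an adjusted p under 0.05 by limma, whatever the size of the difference, so passing it was usual. The median log2 difference of the 54 genes was -0.37, close to that of all genes tested. Among the genes called, Mme, Anpep, Cebpa and Slc2a4 passed the filter through the mouse alone, and Cpm and Hsd11b2 through the ferret alone. Like Agt, they could pass it only by being high in that species, so nothing is read from their calls.

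Peptidases of angiotensins and bradykinin outside the members were split. Of 10 tested, 2 were higher and 2 lower in ferret astrocytes, against 13.1% and 30.1% of all genes tested. Prep, a prolyl endopeptidase that forms the heptapeptide from angiotensin I or II, stood at 27.8 and 30.0 FPKM in ferret and at 4.60 and 4.65 in mouse libraries, a gap of 2.41 on the log2 scale (standard error 0.069, adjusted p = 6.77e-10, limma). Thop1, thimet oligopeptidase, stood at 30.1 and 31.1 against 12.7 and 13.2 FPKM, a gap of 1.18 on the log2 scale (standard error 0.062, adjusted p = 4.44e-08, limma). On the other side, the membrane peptidase neprilysin (Mme) stood at 0.029 and 0.017 FPKM in ferret and at 5.62 and 6.35 in mouse libraries, a gap of -2.77 on the log2 scale (standard error 0.083, adjusted p = 8.63e-10, limma). Aminopeptidase N (Anpep), which acts on angiotensin III, stood at 0.125 and 0.119 against 3.999 and 3.993 FPKM, a gap of -2.16 on the log2 scale (standard error 0.075, adjusted p = 2.40e-09, limma). Anpep is also known from pericytes and fibroblasts. Of 4 pericyte markers tested, Kcnj8 and Higd1b were called higher and Pdgfrb lower in ferret astrocytes, against 13.1% and 30.1% of all genes tested. Notch3 was not called, at 2.857 and 2.697 FPKM in ferret and 5.865 and 5.773 in mouse libraries. Rgs5, under the filter, was listed at 0 in both ferret libraries and stood at 0.601 and 0.576 in mouse libraries. The tested fibroblast markers other than Pdgfra were lower in ferret astrocytes, as given with Lnpep. The part of these cells in the level of Anpep was not tested.

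Other peptidases of that list differed by less than the limit for a call or were near 0. Ctsa (77.9 ± 4.93 FPKM in ferret and 152.0 ± 3.92 in mouse, SD, n = 2) had a log2 difference of -0.96 and Nln one of -0.57. Ece1, Dpp3 and Prcp had log2 differences of 0.64, 0.46 and 0.32. Cma1, mast cell chymase, was listed at 0 in 3 libraries and at 0.035 FPKM in ferret replicate 1. Ctsd and Klk1 had no symbol in common and were not analysed here.

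Of 7 tested genes of receptor partners and signal transducers, 3 were lower and 0 higher in ferret astrocytes, against 30.1% and 13.1% of all genes tested. Mtus1, whose products include a protein that binds the type 2 receptor, stood at 1.83 and 1.61 FPKM in ferret and at 9.74 and 11.01 in mouse libraries, a gap of -2.06 on the log2 scale (standard error 0.086, adjusted p = 7.99e-09, limma). The arrestins Arrb1 and Arrb2, which uncouple receptors from G proteins, had log2 differences of -1.91 (adjusted p = 1.33e-08 by limma) and -1.36 (adjusted p = 6.62e-07 by limma). Arrb2 was no longer called after quantile normalization, at -0.96. Gnaq, the G protein subunit through which the type 1 receptor signals, stood at 19.5 and 21.6 FPKM against 21.7 and 22.0, and did not pass the test (-0.08 on the log2 scale, adjusted p = 0.260 by limma).

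Among 7 tested genes for known transcriptional regulators of Agt, 3 were called lower and 0 higher in ferret astrocytes, against 30.1% and 13.1% of all genes tested, and 1 of the 3 calls was lost under both other scalings. Cebpa stood at 0 and 0.106 FPKM in ferret and at 9.29 and 8.94 in mouse libraries (-3.27 on the log2 scale, standard error 0.083, adjusted p = 3.18e-10 by limma). The glucocorticoid receptor gene Nr3c1 stood at 8.73 and 8.57 against 23.9 and 26.2 FPKM (-1.43 on the log2 scale, standard error 0.069, adjusted p = 2.33e-08 by limma). Cebpd, at 13.2 and 13.2 against 28.8 and 32.7 FPKM, differed by -1.16 on the log2 scale (adjusted p = 1.62e-07, limma), which was -0.79 with the libraries rescaled to the same sum and -0.77 after quantile normalization, under the limit for a call in both. Stat3, Rela and Cebpb had log2 differences of -0.41, -0.61 and -0.34, and Usf1 one of 0.31. Hnf4a, a liver regulator, was listed at 0 in both mouse libraries and stood at 0.081 and 0.146 FPKM in the ferret libraries. Microglial markers were lower in ferret astrocytes as well, as given with Lnpep. The part of microglia in the levels of Cebpa and the other regulators was not tested.

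Kinin and corticosteroid genes were few above the filter. Calls over all genes tested were 13.1% higher and 30.1% lower in ferret astrocytes. Of 2 kinin genes tested, Cpm, a carboxypeptidase that trims bradykinin, was higher in ferret astrocytes, at 1.75 and 2.55 FPKM against 0.094 and 0.173 (1.46 on the log2 scale, standard error 0.117, adjusted p = 1.03e-06 by limma). Xpnpep1, an aminopeptidase P, was lower, at 16.5 and 17.4 against 54.9 and 52.7 FPKM (-1.61 on the log2 scale, standard error 0.061, adjusted p = 4.49e-09 by limma). The bradykinin precursor gene Kng1 was listed at 0 in both ferret libraries and stood at 0.6997 and 0.4799 FPKM in the mouse libraries. Of 4 corticosteroid genes tested, Sgk1, a kinase induced by corticosteroids, was lower in ferret astrocytes, at 12.7 and 13.0 against 63.8 and 62.5 FPKM (-2.21 on the log2 scale, adjusted p = 4.35e-10 by limma). Hsd11b2, which inactivates cortisol, was higher, at 1.06 and 1.34 against 0.052 and 0.131 FPKM (1.01 on the log2 scale, standard error 0.090, adjusted p = 2.41e-06 by limma). Its call rested on single libraries, as the difference was 0.92 without ferret replicate 2 and 0.96 without mouse replicate 1. The mineralocorticoid receptor gene Nr3c2 was at a mean of 2.72 ± 0.210 FPKM in ferret against 3.92 ± 0.323 in mouse astrocytes (SD, n = 2).

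V-ATPase subunits are the partners of Atp6ap2. Of 14 tested, 1 was higher, 3 were lower and 10 were not called, where 13.1% of all genes tested were called higher and 30.1% lower. The median log2 difference of the 14 was -0.10, and that of all genes tested was -0.35. Atp6v1d stood at 148.8 and 163.8 FPKM in ferret and at 52.1 and 53.3 in mouse libraries (1.55 on the log2 scale, adjusted p = 7.74e-09 by limma). Tcirg1 differed by -2.13 on the log2 scale (adjusted p = 8.82e-09, limma), Atp6v0a2 by -1.65 (adjusted p = 3.79e-09 by limma) and Atp6v1h by -1.23 (adjusted p = 3.59e-08 by limma). Atp6v1h was no longer called with rescaled libraries, at -0.85, or after quantile normalization, at -0.88. Tcirg1 and Atp6v0a2 encode alternative forms of the same membrane subunit. The other accessory subunit gene, Atp6ap1, stood at 82.2 and 83.0 FPKM in ferret and at 154.9 and 158.7 in mouse libraries, a log2 difference of -0.92, where Atp6ap2 was higher in ferret astrocytes. The part of microglia, whose markers were lower in ferret astrocytes, in the levels of Tcirg1 and the other subunits was not tested.

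Relatives and partners of Lnpep were also measured. Of 6 aminopeptidases of the same family tested, 2 were lower and 0 higher in ferret astrocytes, against 30.1% and 13.1% of all genes tested. Aopep differed by -1.53 on the log2 scale (adjusted p = 1.06e-07, limma) and Erap1, which trims antigenic peptides, by -1.35 (adjusted p = 4.99e-08 by limma). Erap1 was no longer called with rescaled libraries, at -0.99, or after quantile normalization, at -0.93. Npepps, at a mean of 82.4 ± 1.23 FPKM in ferret against 57.4 ± 1.20 in mouse astrocytes (SD, n = 2), had a log2 difference of 0.51. Lnpep travels in vesicles with the glucose transporter GLUT4. Of 4 genes of these vesicles tested, 3 were lower and 0 higher in ferret astrocytes, against 30.1% and 13.1% of all genes tested. Slc2a4, which encodes GLUT4, stood at 0.055 and 0.018 FPKM in ferret and at 4.69 and 4.89 in mouse libraries (-2.48 on the log2 scale, standard error 0.077, adjusted p = 1.09e-09 by limma). Sort1, the sorting receptor sortilin, stood at 9.57 and 8.85 against 38.7 and 40.4 FPKM (-1.99 on the log2 scale, adjusted p = 1.78e-09 by limma). Lrp1 stood at 22.9 and 22.8 against 81.5 and 76.7 FPKM (-1.75 on the log2 scale, adjusted p = 2.11e-09 by limma). Tbc1d4 had a log2 difference of 0.36. The median of the 4 genes was -1.87, and Slc2a4 passed the filter on low values through the mouse alone. Microglial markers moved the same way, as did the tested fibroblast markers other than Pdgfra, as given with Lnpep. The part of these cells in the levels of the vesicle genes was not tested.

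**Figure D4:**
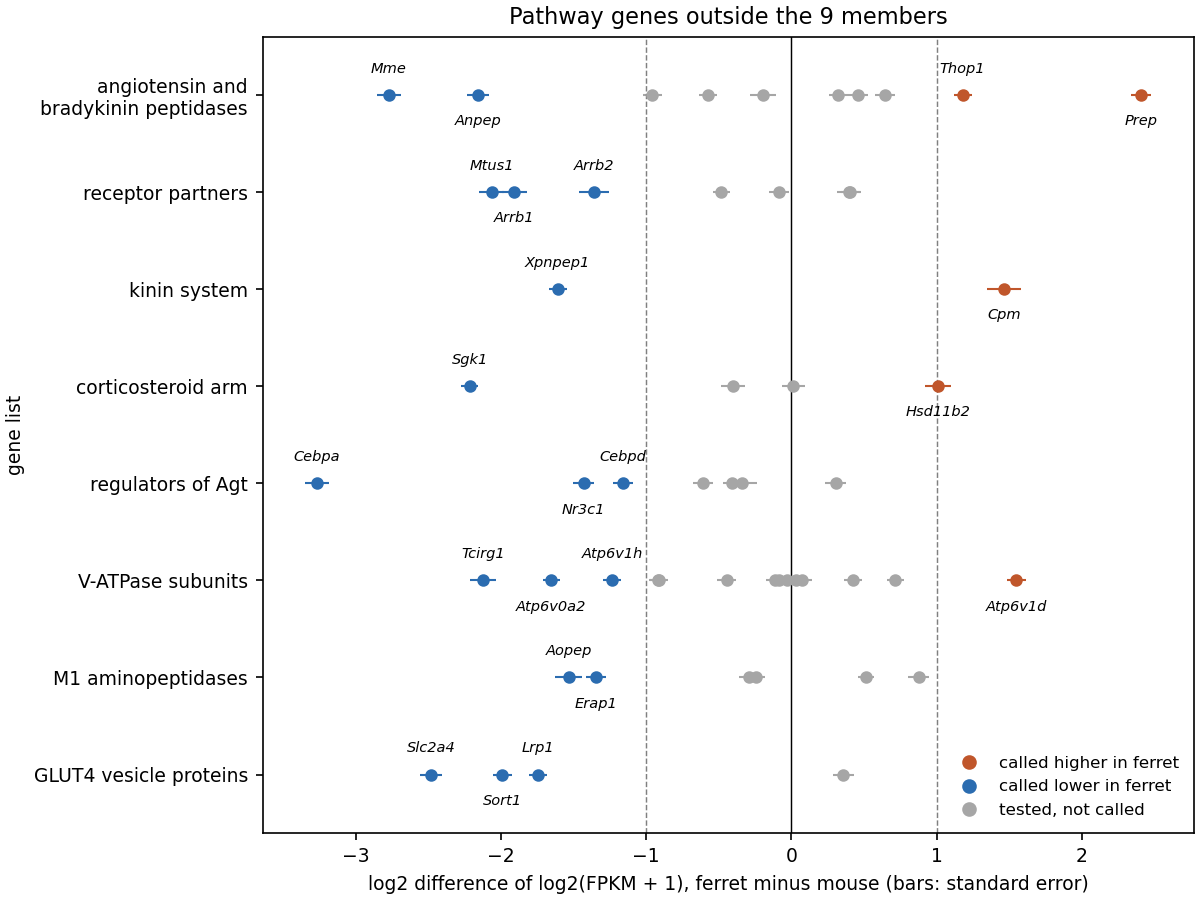
Log2 difference, ferret minus mouse, of the 54 tested pathway genes outside the 9 members, 1 point per gene with its standard error, in rows by list. Orange points are the 5 genes called higher, blue points the 18 called lower and grey points the 31 not called, with dashed lines at the limits of 1. The GLUT4 vesicle row has 3 of 4 points called lower, against 30.1% of all genes tested.

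The cultures carried astrocyte markers in both species, with Gfap between 1429 and 1546 FPKM in the 4 libraries, but Slc1a2 was near 0 in ferret. Of 9 such markers, 5 were called lower and 1 higher in ferret astrocytes, against 30.1% and 13.1% of all genes tested. Slc1a2 stood at 0.1325 and 0.178 FPKM in ferret and at 47.1 and 51.8 in mouse libraries. Aqp4, Aldh1l1, Slc1a3 and Ndrg2 were also called lower and S100b was called higher, while Gfap, Sox9 and Aldoc were not called. Summed markers of 2 other cell types moved with Agt, though not every marker did. Summed FPKM of 6 oligodendrocyte lineage markers was 84.9 and 91.5 in ferret and 21.4 and 19.9 in mouse libraries, and that of 5 neuronal markers was 7.80 and 7.84 against 2.06 and 2.31. Olig2 and Cspg4 went the other way. Olig2 stood at 4.921 and 5.185 FPKM in ferret against 9.617 and 9.802 in mouse libraries, and Cspg4 at 1.036 and 1.165 against 2.004 and 1.808. Of these lists, Mog, Snap25, Rbfox3 and Slc17a7 were below 1 FPKM in all 4 libraries, and Rbfox3 and Slc17a7 had lower values in ferret. The paper also stained for the oligodendrocyte protein MBP, in cultures kept in serum. The make-up it reported for ferret cultures names astrocytes, microglia and neurons, and no oligodendrocytes. The part of oligodendrocyte lineage cells and neurons in the level of Agt was not tested.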

How the data were processed

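The authors sequenced stranded, polyA-selected libraries made from 500 ng of RNA as paired-end reads of 101 bp. Reads were aligned to each species' own genome (ferret MusPutFur1.0, mouse GRCm38, Ensembl release 99) with STAR 2.7.0f, and the authors deposited 1 FPKM per gene and library from Cufflinks 2.2.1, with no filter stated. The submitters' notes also name bcl2fastq 2.17. FPKM keeps no depth, and the authors' read counts were not used here, so no counting interval is given.

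Symbols were matched in upper case. For a symbol with several values, that of the highest species mean was kept. log2(FPKM + 1) of the 10204 shared symbols that reached a species mean of 1 FPKM was fitted with limma 3.58.1 (R 4.3.3, trended empirical Bayes, Benjamini-Hochberg over all 10204 genes), and the fit was tested on simulated data. A call took an adjusted p below 0.05 together with a log2 difference beyond 1 in either direction. With 2 libraries a group, the smallest two-sided p an exact permutation test allows is 0.333, so none was run.

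The members and lists were chosen with earlier results of these data known. Named from each pathway list were the genes called, at most 4 by size of difference, the matched genes of the peptidase and receptor lists (some items are not reported here), and the 3 genes nearest to Agt. Other genes, such as Gnaq, Stat3, Atp6ap1 and Npepps, were named after their values were seen. Mouse sequences and coordinates are from GENCODE M21 (GRCm38), an annotation other than the authors'. Biopython 1.88 was used for translation.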

Additional observations from a re-analysis of the deposited data

How the results depend on the processing

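The alternatives were 2 other scalings, 0.1 as pseudocount, the fit without the filter, summed values for repeated symbols, the replicate block and each library left out in turn, 10 in all. The numbers of members past the limits stayed within 1.5 times under each of them, with 3 higher where Ace was added (both scalings and the pseudocount of 0.1). Pathway genes outside the members called higher rose from 5 to 8 with libraries rescaled to the same sum and to 8 after quantile normalization, since both scalings shift all genes towards the ferret. The labels give both species the replicate numbers 1 and 2, but a ferret and a mouse library of the same number share no animal. Deviations of same-numbered libraries correlated at 0.01 across genes. With the replicate block 2 members were higher and 1 was lower, and none of the 34 calls followed for single genes changed. Log2 differences over all alternatives ranged from 5.96 to 7.08 for Agt, 1.41 to 1.89 for Agtrap, 0.70 to 1.16 for Ace, 0.54 to 0.95 for Atp6ap2 and -1.86 to -1.35 for Lnpep, and no called difference changed sign. Without ferret replicate 2, Ctsa passed the limits at -1.02. Ece1 passed them at 1.01 with rescaled libraries and at 1.04 after quantile normalization. Atp6v1h, Erap1 and Cebpd no longer did with rescaled libraries, at -0.85, -0.99 and -0.79, or after quantile normalization, at -0.88, -0.93 and -0.77, where Arrb2 was also lost at -0.96. For the 4 members under 1 FPKM, the counting error was not assessed here.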
